A study of Mus musculus with 6 samples.

Results

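C-type lectins, Siglecs, the CD300 family and the LILR-type receptors are surface proteins by which blood cells read sugars, lipids and class I molecules on other cells. The set held 39 genes of the 18186 genes with a probe set of their own, and was chosen by name: Clec genes followed by a number and a letter, Siglec, Lilr, Pir and Cd300 genes, and Cd33, Cd22, Cd209a, Mrc1 and Klrd1. Clec4e, Clec4d, Clec1b and Siglecf were left out by the rule, and Klrb1c was not analysed here. The 39 genes were read by 52 probe sets with a single gene symbol, and the brightest probe set on average stood for each gene. Pirb alone stood for the LILR and PIR genes. Probe sets with several symbols were left out, and 6 of them held a symbol of the kinds named above.

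The study measured haematopoietic stem cells (HSC), sorted by flow cytometry from mouse bone marrow, on Affymetrix Mouse Genome arrays. The PU.1 KD HSC group came from PU.1 knockdown animals and the WT HSC group from wildtype animals, with 3 arrays each and a pool of 3 animals on each array. How PU.1 was lowered, the sort markers, the strain and the age were not stated in the labels. Both groups shared the sort and the amplification of RNA in repeated rounds, and in such bulk RNA fewer cells of a type and less RNA per cell cannot be told apart.

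PU.1 is the product of Spi1 and belongs to the ETS transcription factors. It drives myeloid and B cell genes, and many receptors of this kind mark the cells that PU.1 helps to form. Inhibitory members carry tyrosine motifs (ITIM) in their tails that recruit the phosphatases SHP-1 and SHP-2. Activating members signal through the adaptors DAP12 or the Fc receptor gamma chain, or through a tyrosine motif of their own, to the kinase Syk. Another class takes up glycoproteins, and the Clec2 proteins are ligands of natural killer (NK) cell receptors.

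The arrays had median intensities of 81.4 to 89.0 in PU.1 KD pools and 90.0 to 91.5 in WT pools. Of the HSC markers, 10 of 12 were measured, each brighter on average than the median probe set, and their summed intensity was 7194 to 8500 in PU.1 KD pools and 6786 to 13031 in WT pools. The intensity of Spi1 was 362, 360.4 and 119 in PU.1 KD pools 1, 2 and 3, against 1120.0, 718 and 1053 in WT pools 1, 2 and 3. All PU.1 KD pools were below all WT pools, and the limma difference on the log2 scale was -1.76 (SE 0.43, Benjamini-Hochberg adjusted p = 0.503). PU.1 KD pool 3 was the lowest in Spi1. Neutrophil markers (10 of 10 measured), some of which progenitors also make, summed to 35905 to 44904 in PU.1 KD pools and 17765 to 44560.1 in WT pools, with WT pool 2 the lowest.

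The receptor with the clearest separation was Cd300a, an inhibitory receptor for phospholipids on dying cells. Its fold of PU.1 KD over WT was 0.263, converted from the difference between the group means of log2(intensity + 16). Siglecg, an inhibitory Siglec of B cells, also had a lower level in every PU.1 KD pool than in any WT pool. Clec4a2, the inhibitory lectin DCIR of myeloid and dendritic cells, had the widest gap in means, but 1 WT pool lay among the PU.1 KD pools. Cd33, Clec7a, the beta-glucan receptor Dectin-1, and Clec2d, a ligand that restrains NK cells, had groups that overlapped. The only member with PU.1 KD pools all above the WT pools was Clec14a, a lectin-like protein of endothelial cells.

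None of these differences passed adjustment over all probe sets. In limma, 0 of the 39 genes were called at a Benjamini-Hochberg adjusted p under 0.05 in either direction, beside 0% of all genes, and the smallest adjusted p among them was 0.538. At an unadjusted p under 0.05, 7 of the 39 (17.9%) were lower, beside 3.52% of all genes, and 1 (2.56%) was higher, beside 4.1% of all genes. The count of 7 lower genes was 2, Cd300a and Siglecg, without PU.1 KD pool 3, and 4 without WT pool 3. The share over all genes was not counted with a pool left out. After normalisation, all PU.1 KD pools lay below all WT pools for 4 genes (10.3%), beside 5.39% of all genes, and above them for 1 gene (2.56%), beside 8.42%. The mean was lower in PU.1 KD pools for 23 genes and higher for 16. The median difference was -0.086 over the 39 genes and 0.018 over all genes, on the log2(intensity + 16) scale used for every difference below, on which folds of weak probe sets are understated. Each difference is PU.1 KD minus WT, and with 3 pools against 3 the exact permutation test cannot go below 0.1.

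**Figure D1:**
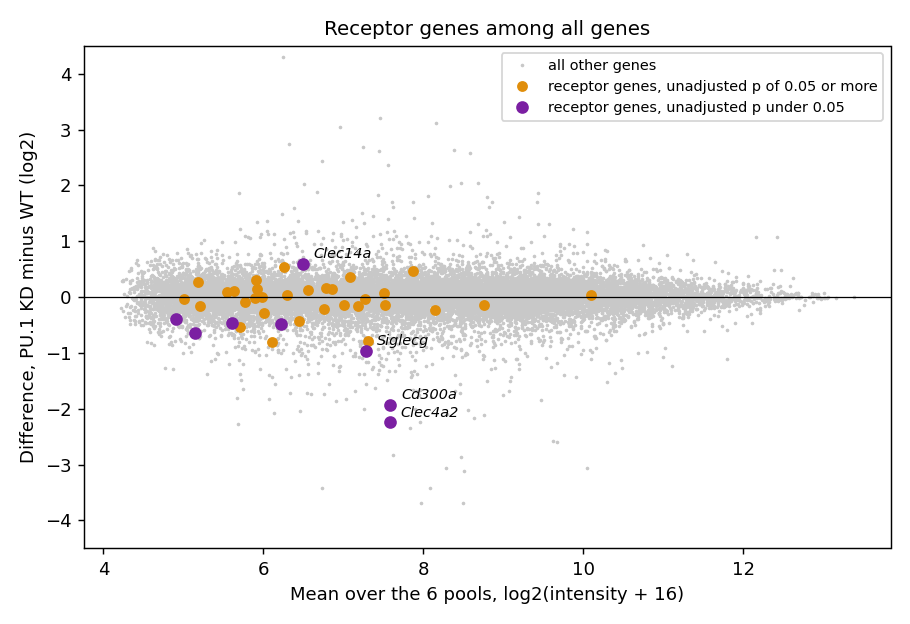
The difference between PU.1 KD and WT pools (log2 scale, vertical axis) is plotted against the mean of the 6 pools (horizontal axis) for 18186 genes, with the 39 receptor genes as large points. Clec4a2 (-2.24), Cd300a (-1.92) and Siglecg (-0.96) lie lowest among the receptor genes, and most others lie near 0.

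The members were grouped by role from textbook knowledge of each gene, not by a search for tyrosine motifs in their proteins. Among the 8 inhibitory receptors (Cd300a, Cd300lf, Siglecg, Siglece, Cd22, Pirb, Clec4a2 and Clec12b), 6 had a lower mean in PU.1 KD pools and the median difference was -0.53. Unadjusted p was under 0.05 for 4 of them, all lower, beside 3.52% of all genes. Cd300a had intensities of 122, 149 and 22.1 in PU.1 KD pools 1, 2 and 3, against 362, 368 and 375 in WT pools 1, 2 and 3. The WT pools were close to each other, and PU.1 KD pool 3 was the lowest, as it was for Spi1. Its difference was -1.92 (SE 0.51, 95% interval -3.10 to -0.75), with a limma p of 0.00564, an adjusted p of 0.538 and an exact two-sided permutation p of 0.1. Without PU.1 KD pool 3 the difference was -1.24 (adjusted p = 0.405). A second, dimmer probe set of Cd300a differed by -0.22 (SE 0.20).

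Siglecg, which dampens B cell receptor signalling, had intensities of 139, 59.6 and 92.2 in PU.1 KD pools, against 260, 166 and 206 in WT pools. The groups did not overlap, and the highest PU.1 KD pool was close to the lowest WT pool. The difference was -0.96 (SE 0.30, 95% interval -1.65 to -0.27), with a limma p of 0.01295 and an adjusted p of 0.588. Clec4a2 had intensities of 122, 86.8 and 27.2 in PU.1 KD pools, against 766, 93.7 and 854 in WT pools. WT pools 1 and 3 were high, whereas WT pool 2 lay within the range of the PU.1 KD pools, so the groups overlapped. The difference was -2.24 (SE 0.81, adjusted p = 0.656). With 1 array left out it ran from -3.21 (adjusted p = 0.173) without WT pool 2 to -1.70 without WT pool 3. The second probe set of Clec4a2 differed by -0.87 (SE 0.28), also with WT pool 2 below WT pools 1 and 3.

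Clec12b, an ITIM-bearing lectin, was dim, with 23.7, 9.91 and 5.37 in PU.1 KD pools, against 36.8, 25.7 and 24.8 in WT pools. PU.1 KD pool 1 reached the level of WT pool 3 after normalisation, and the difference was -0.64 (SE 0.24, adjusted p = 0.675). Siglece, an inhibitory Siglec of myeloid cells, had 108, 104 and 93.3 in PU.1 KD pools, against 111, 75.0 and 108 in WT pools. Its difference of 0.14 had a 95% interval of -0.28 to 0.56. Cd300lf, Pirb and Cd22 differed by -0.42 (SE 0.36), -0.28 (SE 0.27) and 0.00024 (SE 0.18), and their groups overlapped.

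**Figure D2:**
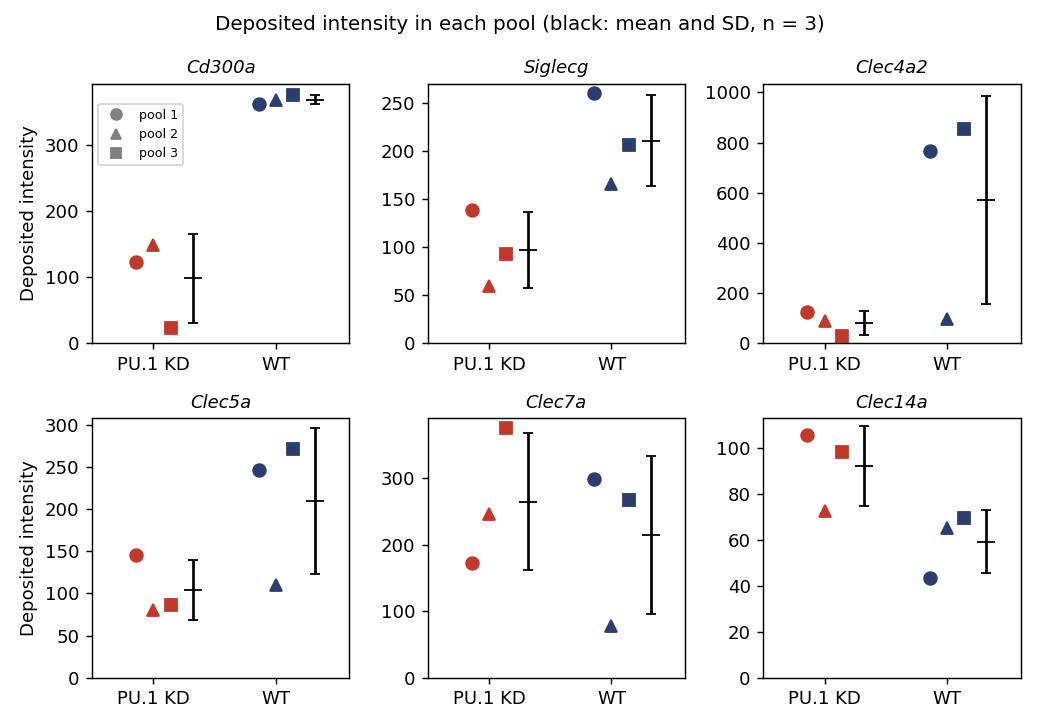
Deposited intensity (vertical axis, from 0) is shown for 6 receptor genes in each pool, PU.1 KD pools left and WT pools right, with mean and SD in black (n = 3). Cd300a and Siglecg are below the WT pools in each PU.1 KD pool, WT pool 2 is low for Clec4a2, Clec5a and Clec7a, and Clec14a is above the WT pools in each PU.1 KD pool.

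The promoters of the genes that stood lowest or highest are shown because PU.1 binds purine-rich sequence with the core GAGGAA. Sequences are those of RefSeq, assembly GRCm38.p6, each from 250 bases before to 50 after the annotated start, read along the gene's strand. Capitals mark GAGGAA or its reverse complement TTCCTC. The windows are chr11:114889791-114890090, plus strand, for Cd300a; chr7:43407989-43408288, plus strand, for Siglecg; chr6:123122440-123122739, plus strand, for Clec4a2; chr11:115133943-115134242, minus strand, for Cd300lf, a neighbour of Cd300a; and chr12:58269209-58269508, minus strand, for Clec14a.
Cd300a: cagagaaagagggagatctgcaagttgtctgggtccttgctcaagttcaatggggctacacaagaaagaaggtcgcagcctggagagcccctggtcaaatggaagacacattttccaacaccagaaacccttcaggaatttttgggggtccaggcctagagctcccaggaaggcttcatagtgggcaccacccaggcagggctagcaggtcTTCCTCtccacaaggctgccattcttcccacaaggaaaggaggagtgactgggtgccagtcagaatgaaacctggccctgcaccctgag
Siglecg: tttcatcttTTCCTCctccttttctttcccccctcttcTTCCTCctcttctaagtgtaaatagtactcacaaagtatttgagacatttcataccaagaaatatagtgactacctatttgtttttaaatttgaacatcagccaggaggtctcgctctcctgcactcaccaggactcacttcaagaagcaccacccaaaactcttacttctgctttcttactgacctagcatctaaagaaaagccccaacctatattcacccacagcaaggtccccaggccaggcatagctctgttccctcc
Clec4a2: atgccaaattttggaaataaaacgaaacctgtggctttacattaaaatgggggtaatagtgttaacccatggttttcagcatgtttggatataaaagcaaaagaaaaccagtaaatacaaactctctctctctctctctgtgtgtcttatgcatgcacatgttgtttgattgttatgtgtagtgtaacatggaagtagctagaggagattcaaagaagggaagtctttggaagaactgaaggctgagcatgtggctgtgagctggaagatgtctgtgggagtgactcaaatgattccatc
Cd300lf: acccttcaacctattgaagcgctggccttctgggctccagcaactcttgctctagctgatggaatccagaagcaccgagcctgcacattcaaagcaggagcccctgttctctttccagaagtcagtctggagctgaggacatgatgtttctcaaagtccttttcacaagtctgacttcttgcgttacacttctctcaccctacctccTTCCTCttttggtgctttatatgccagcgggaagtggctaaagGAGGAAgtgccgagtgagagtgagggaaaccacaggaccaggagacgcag
Clec14a: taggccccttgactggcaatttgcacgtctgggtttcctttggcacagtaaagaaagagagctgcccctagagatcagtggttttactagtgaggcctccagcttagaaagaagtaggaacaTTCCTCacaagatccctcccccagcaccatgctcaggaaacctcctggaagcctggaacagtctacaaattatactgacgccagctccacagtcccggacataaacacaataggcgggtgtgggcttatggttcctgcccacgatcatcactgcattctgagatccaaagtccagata

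The core was found 1 time in the Cd300a window, starting 39 bases before the start site, and 2 times in the Siglecg window. The Clec4a2 window held 0 copies, Clec14a 1 and Cd300lf 2. Of the 39 genes, 32 had a window in the RefSeq table, and 20 of these held the core on either strand. Counted by window, 58.3% of 36 member windows and 28.3% of all 32851 windows held it. Of the 7 genes lower at an unadjusted p under 0.05, 6 had a window and 2 held the core (Cd300a and Siglecg), against 17 of 25 among the members without such a p. A match of letters is a description of the window, not a bound site.

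The 7 activating receptors (Clec7a, Clec5a, Clec4n, Cd300lb, Cd300ld, Cd300c2 and Siglech) had a median difference of -0.086, with 4 lower and 3 higher, and 0 had an unadjusted p under 0.05. Clec5a, a DAP12-coupled lectin of monocytes and neutrophils, had intensities of 145, 81.0 and 86.2 in PU.1 KD pools, against 246, 110.4 and 272 in WT pools. PU.1 KD pool 1 lay above WT pool 2. The difference was -0.78 (SE 0.36, adjusted p = 0.723). With 1 array left out it ran from -1.16 without WT pool 2 to -0.55 without WT pool 3.

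Clec7a had intensities of 172, 246 and 375 in PU.1 KD pools, against 298, 77.7 and 267 in WT pools. PU.1 KD pool 3, lowest for Spi1 and Cd300a, was the highest pool for Clec7a, and WT pool 2 was the lowest. The difference of 0.46 (SE 0.46, 95% interval -0.61 to 1.54) became -0.10 without WT pool 2. Cd300c2, an activating CD300 receptor, had 139, 179.9 and 143 in PU.1 KD pools, against 192, 166 and 192 in WT pools. Its difference was -0.15 (95% interval -0.52 to 0.22). Cd300lb, which pairs with DAP12, had a difference of -0.81 (SE 0.36, limma adjusted p = 0.712), with PU.1 KD pool 3 the lowest at an intensity of 12.95.

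The 6 uptake and adhesion receptors (Mrc1, Cd209a, Clec10a, Clec4f, Clec4g and Siglec1) had a median difference of -0.094, with 5 lower. Clec10a, a galactose-type lectin of macrophages and dendritic cells, was dim, with 26.2, 29.6 and 19.5 in PU.1 KD pools, against 37.9, 47.8 and 41.7 in WT pools. The groups did not overlap, and the difference was -0.46 (SE 0.16, adjusted p = 0.639). Siglec1, the adhesion Siglec of macrophages, had 151, 126 and 119.5 in PU.1 KD pools, against 123, 147 and 165 in WT pools. It differed by -0.029 (95% interval -0.44 to 0.38). Clec4g, a lectin of liver and lymph node sinus cells, had 161, 157 and 178 in PU.1 KD pools and 170.5, 152 and 176 in WT pools, a difference of 0.080 that was -0.0071 with the values as deposited. Mrc1, the macrophage mannose receptor, differed by -0.54 (SE 0.25, limma adjusted p = 0.717).

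**Figure D3:**
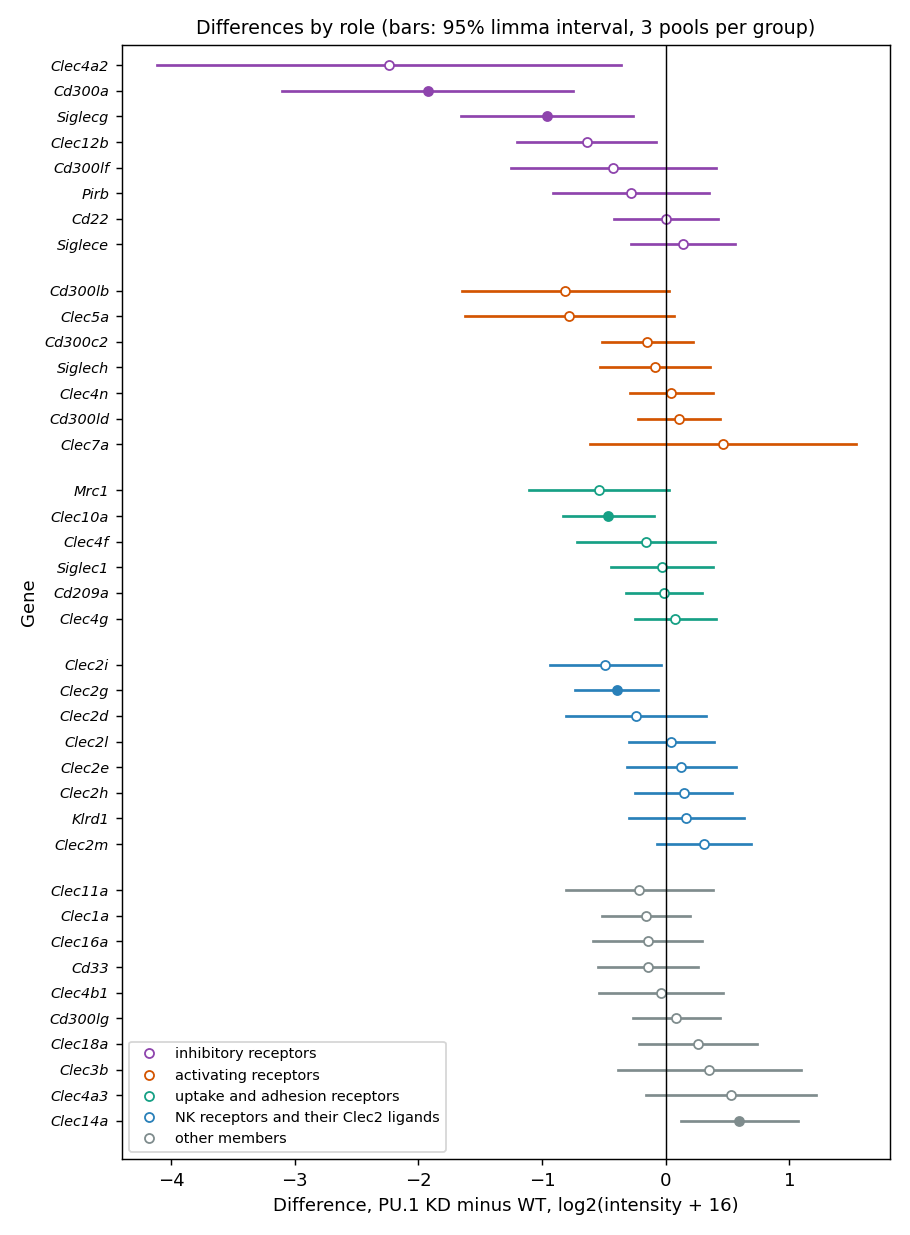
The difference between PU.1 KD and WT pools (log2 scale, horizontal axis) is shown for each of the 39 genes, grouped by role, with the 95% interval of the limma fit from 3 pools per group; filled points mark genes whose groups did not overlap. The intervals of 4 inhibitory receptors and of Clec10a, Clec2i and Clec2g lie below 0, and that of Clec14a lies above 0.

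Klrd1, the CD94 subunit of NK receptors, and the 7 Clec2 genes (Clec2d, Clec2e, Clec2g, Clec2h, Clec2i, Clec2l and Clec2m) had 5 higher and 3 lower means and a median difference of 0.085. Clec2d had 148, 339 and 266 in PU.1 KD pools, against 278, 300.1 and 319 in WT pools. PU.1 KD pool 1 was the low one, and the difference of -0.24 (95% interval -0.81 to 0.33) was 0.030 without it. Clec2i, a ligand of an NK receptor of the NKR-P1 family, had 42.9, 61.6 and 35.5 in PU.1 KD pools, against 64.9, 87.3 and 72.5 in WT pools. PU.1 KD pool 2 reached the level of WT pool 1 after normalisation, and the difference was -0.49 (SE 0.19, adjusted p = 0.676), with -0.74 on its other probe set.

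Clec2g was among the dimmest, with 8.73, 13.3 and 7.69 in PU.1 KD pools, against 16.4, 17.9 and 21.3 in WT pools, a difference of -0.40 (SE 0.15, adjusted p = 0.662) without overlap. Clec2l, a Clec2 relative known from brain, had 1122, 1106 and 999.6 in PU.1 KD pools, against 1039, 1108 and 1105 in WT pools. The pools were close to each other in both groups, and the difference of 0.045 had a 95% interval of -0.30 to 0.39. Klrd1 had 77.4, 90.7 and 134 in PU.1 KD pools, against 77.2, 114 and 85.9 in WT pools, a difference of 0.17 (95% interval -0.29 to 0.63).

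The remaining 10 genes had 5 higher and 5 lower means. Clec14a had 106, 72.7 and 98.2 in PU.1 KD pools, against 43.4, 65.1 and 69.4 in WT pools. Every PU.1 KD pool was above every WT pool, with a difference of 0.60 (SE 0.20, limma adjusted p = 0.639) and 0.53 (SE 0.31) on its other probe set. Cd33, a Siglec that marks myeloid progenitors in human, had 440.0, 346 and 366 in PU.1 KD pools, against 453, 485 and 412 in WT pools. The groups overlapped through PU.1 KD pool 1, and the difference was -0.14 (95% interval -0.54 to 0.26).

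Clec1a, a lectin of myeloid and endothelial cells, had 123, 127 and 101 in PU.1 KD pools, against 142, 138 and 145 in WT pools, a difference of -0.16 (SE 0.15). Its deposited intensities did not overlap between the groups. After normalisation PU.1 KD pools 1 and 2, at 7.24 and 7.19 on the log2 scale, stood above WT pool 2 at 7.18. Clec3b, the plasminogen-binding protein tetranectin, had 159.7, 144 and 101 in PU.1 KD pools, against 123, 60.5 and 156 in WT pools, a difference of 0.35 (SE 0.32) that was 0.018 without WT pool 2. Clec16a, a regulator of mitophagy without a receptor role, had 95.3, 105 and 109 in PU.1 KD pools, against 165, 117 and 97.9 in WT pools, a difference of -0.15 (SE 0.19). Clec11a, a secreted growth factor for blood and bone progenitors, had 89.4, 53.1 and 112 in PU.1 KD pools, against 102, 80.3 and 130.1 in WT pools, a difference of -0.21 (SE 0.26). For all 4 genes the groups overlapped after normalisation.

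The other 17 members had probe sets no brighter on average than the median probe set, overlapping groups and differences of -0.81 to 0.53. Their deposited intensities ran from 8.76 to 175, and none of the 39 genes had a value under the floor of 1 in any pool. Of the 11 genes with several probe sets, 9 had the same sign of difference on all of them. The SD among pools was larger in the PU.1 KD group for 21 of the 39 genes and not for the rest. The median SD on the log2 scale was 0.295 in the PU.1 KD group, against 0.204 in the WT group. The same medians over all genes were not computed. PU.1 KD pool 3 was the lowest of the 6 pools for 14 of the 39 genes, beside 14.7% of all genes.

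**Figure D4:**
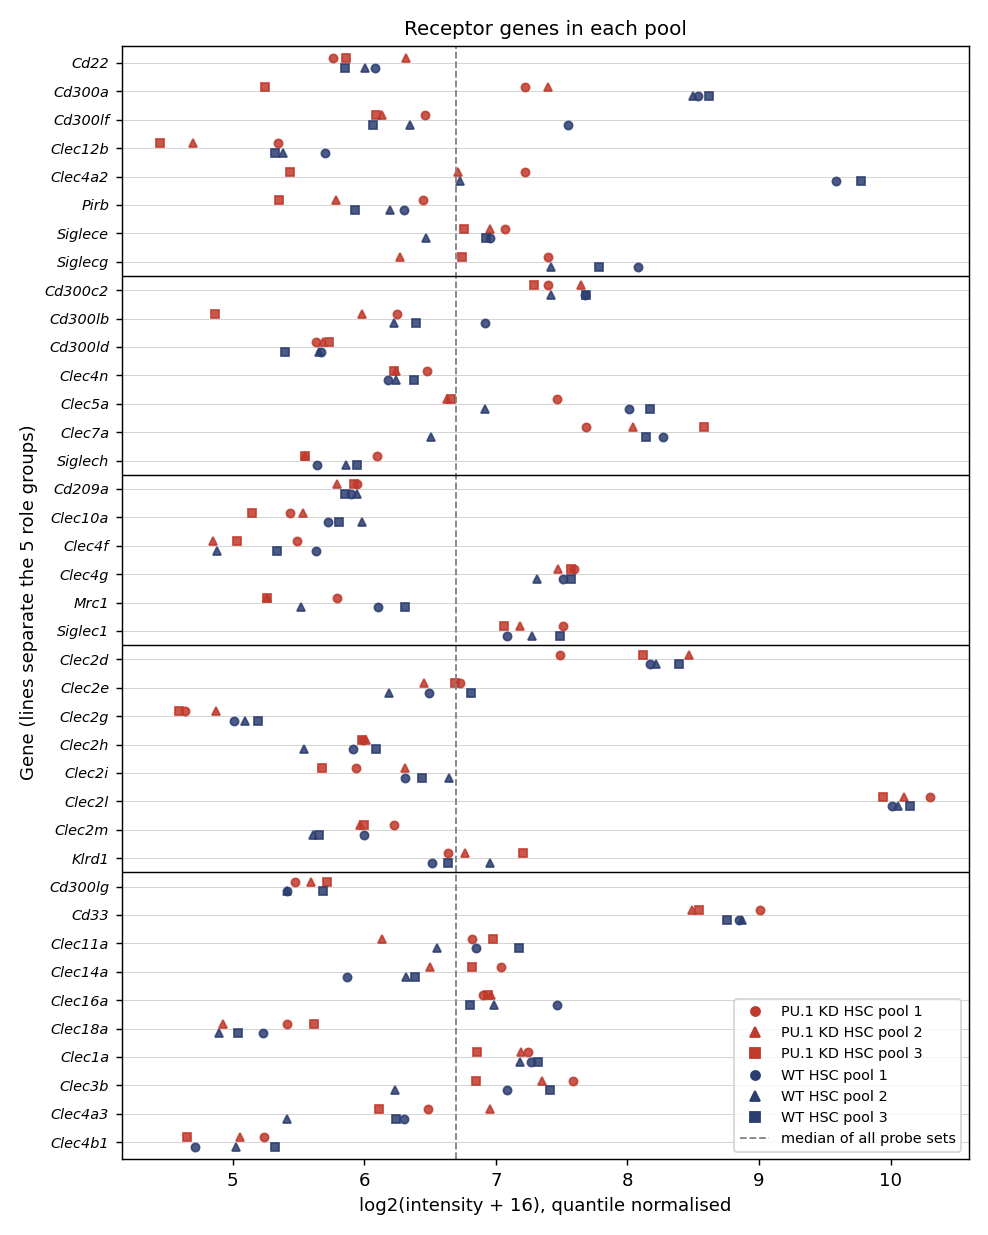
Each point is 1 pool (log2(intensity + 16), quantile normalised, horizontal axis) for the 39 receptor genes, PU.1 KD pools in red above WT pools in blue, with the dashed line at the median of all probe sets. The pools of most genes mix, Cd300a and Siglecg separate, and WT pool 2 stands apart for Clec4a2 and Clec7a; brightness of different probe sets is not a comparison of gene levels.

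Of the 39 genes, 17 lie on chromosome 6, with many lectin genes and Klrd1. Chromosomes 7 and 11 hold 7 each, with most of the Siglecs on 7 and the CD300 genes on 11. Only the chromosome of each gene was taken, not its distance from the others. Of the 7 on chromosome 11, 5 were lower, with a median difference of -0.42, and Clec10a is counted among them. On chromosome 7, 5 of 7 were lower (median -0.14), and on chromosome 6, 9 of 17 (median -0.036). Among the CD300 genes of chromosome 11, differences ran from -1.92 for Cd300a to 0.11 for Cd300ld.

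Markers of other cell types moved with some of these receptors, and their part in the results was not tested. Eosinophil markers, of cells known to carry Cd300a, were measured for 6 of 7 genes and summed to 1191, 549 and 233 in PU.1 KD pools 1, 2 and 3, against 12728, 2053 and 6494 in WT pools 1, 2 and 3. Of the 6, 5 had lower means. Epx, Prg2, Prg3 and Alox15 were lower at an unadjusted limma p under 0.05, beside 3.52% of all genes. Ccr3 was below 0 and Alox15 under 1 in PU.1 KD pool 2. Cd300a was even among the WT pools, while the eosinophil sum was not, and both were lowest in PU.1 KD pool 3. Whether the Cd300a level followed the eosinophil markers was not tested. Monocyte and macrophage markers were measured for 11 of 14 genes, 9 with lower means, and Cd14 alone had an unadjusted p under 0.05. They summed to 7251, 5702 and 5424 in PU.1 KD pools, against 8659, 4017 and 7591.5 in WT pools. By this sum WT pool 2 was the lowest of the 6 pools, as for Clec7a, and the lowest WT pool, as for Clec4a2. By the mean of their log2 values the lowest was PU.1 KD pool 3, the highest pool for Clec7a, at 7.72, beside 7.76 in WT pool 2. B cell markers (8 of 9 measured, 6 with lower means) summed to 1956, 1615 and 887 in PU.1 KD pools, against 2470.4, 1929 and 2027 in WT pools, beside the lower Siglecg. Cd79b, Ms4a1 and Blnk were lower at an unadjusted p under 0.05, beside 3.52% of all genes, while Pax5 and Igll1 had higher means. Dendritic cell markers (11 of 11 measured, 7 with lower means), of a cell type known to carry Clec4a2 and Clec10a, summed to 7701, 9074 and 4689 in PU.1 KD pools, against 8798, 9818 and 7911 in WT pools. The only dendritic marker at an unadjusted p under 0.05 was Bst2, higher by 1.04 (SE 0.38), beside 4.1% of all genes higher. The brightest genes weigh most in such sums, here Flt3 at 2782 and Tcf4 at 1841 in WT pool 2.

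The other marker lists were summed in the same way. Megakaryocyte markers were measured for 8 of 8 genes, all with lower means and a median difference of -1.50, and summed to 8476, 2820.5 and 8454 in PU.1 KD pools, against 16955, 7997 and 16119.8 in WT pools. Mast cell and basophil markers (6 of 7 measured, 4 with higher and 2 with lower means) summed to 2534, 3811 and 5021 in PU.1 KD pools, against 4540.2, 3005 and 3357 in WT pools. Gata2, the brightest of these on average, differed by -0.30 (SE 0.44), and Cpa3 and Mcpt8 by 2.05 (SE 0.35) and 1.71 (SE 0.46). T and NK cell markers (9 of 11 measured, Klrd1 among them, 7 with higher means) summed to 4552, 3149 and 4568 in PU.1 KD pools, against 4841, 1922 and 4433 in WT pools. Most of this sum was Nkg7, with 3718, 2193 and 3653 in PU.1 KD pools, against 3785, 982 and 3507 in WT pools. Erythroid markers (5 of 7 measured, 3 with higher means) summed to 1522, 5284 and 1475 in PU.1 KD pools, against 3119, 1132 and 2365 in WT pools. Outside the eosinophil list, no gene of these marker lists was under the floor of 1 in any pool.

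The partners of these receptors were examined from lists chosen by function. Of 8 measured adaptor and kinase genes of the activating pathway (11 listed), 4 were lower and 4 higher, with 0 at an unadjusted p under 0.05 and a median difference of -0.12. Tyrobp, which encodes DAP12, differed by -0.77 (SE 0.41), Syk by -0.34 (SE 0.18) and Fcer1g, the Fc receptor gamma chain gene, by 0.28 (SE 0.25). Among 10 genes acting downstream of ITIM receptors or limiting tyrosine kinase signals, 6 were higher (median difference 0.081). At an unadjusted p under 0.05, 3 were higher and 1 lower, beside 4.1% and 3.52% of all genes. Socs3, a feedback inhibitor of cytokine receptors, had a log2 mean of 8.46 ± 0.46 in PU.1 KD pools and 6.76 ± 0.80 in WT pools (SD, n = 3 each), a difference of 1.70 (SE 0.40) with an adjusted p of 0.497 in limma. The ubiquitin ligase gene Cbl differed by -0.49 (SE 0.15, adjusted p = 0.574).

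Sialic acids are what Siglecs bind, and 21 of 21 genes for making, attaching or removing them were measured. Of these 13 were higher, with a median difference of 0.097, and at an unadjusted p under 0.05 there were 2 higher and 2 lower, but 0 at an adjusted p under 0.05. St6gal1, which makes the alpha2,6-linked sialic acid that Cd22 recognises, differed by -0.82 (SE 0.28, adjusted p = 0.639), and St8sia4, a polysialyltransferase gene, by -0.61 (SE 0.18, adjusted p = 0.571). St3gal2 and St3gal4, whose products link sialic acid in the alpha2,3 form, differed by 0.42 (SE 0.15) and 0.37 (SE 0.15). For each of these 4 genes the PU.1 KD and WT pools did not overlap. Over all genes, all PU.1 KD pools lay above all WT pools for 8.42% and below them for 5.39%.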

How the data were processed

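Per the labels, RNA of sorted HSC was amplified in repeated rounds, labelled with biotin and read on 6 arrays in a single channel. The deposited values are the authors' processed linear intensity of each of 44991 probe sets; software, background correction and scaling are not stated there. Values under 1 were set to 1, log2(value + 16) was taken and the arrays were quantile normalised, since their log2 medians spread by 0.143. All probe sets were fitted in limma 3.58.1 under R 4.3.3 (lmFit, eBayes), with two-sided moderated tests on 7.82 degrees of freedom and p-values adjusted by Benjamini-Hochberg over the whole table, and the exact permutation test was added for Cd300a. Replicates were pools of animals, and the number of arrays limits precision.

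Names came from the platform annotation, in which 34921 probe sets had 1 symbol, 930 several and 9140 none, and those with several or none were not named. All 39 gene IDs were found in the RefSeq table. Members brighter on average than the median probe set, or with separate groups or an unadjusted p under 0.05, are given by pool, which took 22 genes; other members named with values, and the second and later genes of a partner list, were named after their values were seen. Members and lists were chosen with earlier results of these data known. The 15 alternatives were the values as deposited, median centring, pseudocounts of 1 and 64, a filter at the 40th percentile of the mean, an eBayes trend, array weights, the mean of a gene's probe sets, a replicate block and leaving out each of the 6 arrays.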

Additional observations from a re-analysis of the deposited data

How the results depend on the processing

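The 9 alternatives that kept all arrays and the 6 that left out 1 array each called 0 of the 39 receptor genes and 0 of the partner genes at an adjusted p under 0.05 in limma. Cd300a and Siglecg had an unadjusted p under 0.05 with lower PU.1 KD values in 15 of 15 alternatives, Clec4a2 in 12, Clec10a in 12 of 14, and Clec14a, higher, in 13. Clec12b and Clec2i, both lower, had such a p in 9 of 14 each, and Clec2g, lower, in 8 of 14. The count of lower genes at that p was 3 of the 21 genes left by the filter at the 40th percentile of the mean, and with 1 array left out it ran from 2 to 9. The count of higher genes ran from 0 to 2 with 1 array left out, and that of partner genes from 3 to 11. Genes with all PU.1 KD pools below all WT pools numbered 8 with the values as deposited, 2 after the filter, and 4 to 12 with 1 array left out. Those above numbered 2 with median centring, 0 with the mean of all probe sets of a gene, and 1 to 4 with 1 array left out. For none of the alternatives was the share over all genes counted, so these counts are not a result about the receptors. Values as deposited moved the median of all genes by -0.060 and turned Clec2l to -0.012 and Clec4g to -0.0071. With 1 array left out, differences of opposite sign appeared for Clec2l (-0.047 to 0.13), Clec2d (-0.46 to 0.030), Clec7a (-0.10 to 0.78), Siglec1 (-0.16 to 0.073), Clec16a (-0.29 to 0.046), Siglece (-0.016 to 0.23), Klrd1 (-0.00047 to 0.29) and Clec11a (-0.38 to 0.044). The cause was not tested. Whether the replicate numbers pair the pools cannot be told from so few pools. Same-numbered pools had correlations of deviations of 0.178, 0.061 and -0.039, and differently numbered pools had -0.198 to 0.154. With the number as a replicate block, 10 genes were lower at an unadjusted p under 0.05, in place of 7, and 0 were called. Spi1 differed by -2.08 to -1.24 with 1 array left out. The small number of pools per group limits what can be called.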
